A study of Mus musculus with 18 samples.

Results

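The comparison described here is that of accessible chromatin in NFIB mutant against TKO lung tumors. It took 6 of the 9 ATAC-seq libraries of a series of 18 libraries, namely the 3 labelled TKO and the 3 labelled TKO;NfibR388K, and all 111664 peaks of the peak set, of which 111116 passed the filter on low counts and were tested. All mice carried floxed alleles of Rb1 and p53 and of another retinoblastoma family gene (Rbl1 in the labels, Rbl2 in part of the study's text). Adenovirus carrying Cre was given into the trachea at 8 weeks of age, and tumors were taken 28 weeks after that from 3 animals per genotype. TKO mice carried no further change. The NFIB mutant mice (TKO;Nfib R388K) carried in addition a germline allele, made by CRISPR editing, in which the arginine of NFIB that the methyltransferase CARM1 methylates is replaced by lysine, so the allele was not limited to the cells that Cre reached. Counts of reads cannot show a single amino acid change, so the allele was taken from the labels. TKO;Carm1 mice (CARM1 knockout), with a floxed Carm1 allele on the same background, entered the fit for its estimate of spread. Cells were sorted for a tdTomato reporter that Cre switches on in whichever lung cell it reaches. The study speaks of tumor biopsies in its Results and of cancer cell lines in its Methods, and which of them applies is open.

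Small cell lung cancer is a neuroendocrine tumor, driven as a rule by the loss of RB and p53 and kept in its state by transcription factors such as NEUROD1 and INSM1. NFIB is a member of the nuclear factor I family, which binds paired TTGGC-like letters in DNA as a dimer and is known for opening chromatin at distal regulatory elements during metastasis of this tumor. ATAC-seq reads the places where a transposase can enter DNA. Promoters, the stretches at transcription start sites, tend to be open in most cells, whereas distal elements such as enhancers differ more between cell types.

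Sequences of the regions with the largest changes are shown first, because the letters they hold recur in the comparison of opened and closed peaks given further on. A peak was called opened or closed in NFIB mutant tumors at an adjusted p under 0.1 and a log2 fold change of at least 0.5 in size. The 300 central bases were read from RefSeq GRCm38.p6 on the plus strand, 5′ to 3′. Capitals mark 2 sets of letters on either strand. These were TGANTCA, the site of AP-1 (FOS and JUN dimers), and TTGGCA, the core of an NFI site. The first 3 distal rises lay in an intron of Fyb (chr15:6564943-6565242), in an intron of Ano2 (chr6:125937669-125937968) and between genes with Car8 as the nearest (chr4:7688664-7688963).

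opened, Fyb: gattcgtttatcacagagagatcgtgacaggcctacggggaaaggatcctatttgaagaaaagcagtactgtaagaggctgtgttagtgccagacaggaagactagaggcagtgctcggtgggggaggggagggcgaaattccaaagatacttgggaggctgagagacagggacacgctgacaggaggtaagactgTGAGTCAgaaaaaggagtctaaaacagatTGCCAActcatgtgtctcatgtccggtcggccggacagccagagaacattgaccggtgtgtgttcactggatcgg
opened, Ano2: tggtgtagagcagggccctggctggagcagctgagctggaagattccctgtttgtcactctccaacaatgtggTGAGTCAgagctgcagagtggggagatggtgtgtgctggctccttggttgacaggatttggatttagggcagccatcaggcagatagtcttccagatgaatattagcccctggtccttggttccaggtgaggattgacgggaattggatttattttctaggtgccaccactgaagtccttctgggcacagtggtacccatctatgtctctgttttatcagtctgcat
opened, Car8: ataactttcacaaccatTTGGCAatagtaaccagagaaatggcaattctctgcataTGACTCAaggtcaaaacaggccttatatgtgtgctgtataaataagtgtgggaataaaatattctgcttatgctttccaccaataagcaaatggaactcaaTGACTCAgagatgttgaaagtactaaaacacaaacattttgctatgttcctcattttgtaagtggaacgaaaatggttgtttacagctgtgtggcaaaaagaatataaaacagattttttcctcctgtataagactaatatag

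Each of these opened regions held the AP-1 letters, at base 197 of the window near Fyb, at base 74 near Ano2 and at bases 57 and 158 near Car8. The NFI core was in 2 of them, at base 226 near Fyb and at base 18 near Car8. The first 3 distal falls lay between genes, near Lonrf2 (chr1:38847968-38848267), Tbc1d30 (chr10:121206201-121206500) and Gm11232 (chr4:71765144-71765443).

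closed, Lonrf2: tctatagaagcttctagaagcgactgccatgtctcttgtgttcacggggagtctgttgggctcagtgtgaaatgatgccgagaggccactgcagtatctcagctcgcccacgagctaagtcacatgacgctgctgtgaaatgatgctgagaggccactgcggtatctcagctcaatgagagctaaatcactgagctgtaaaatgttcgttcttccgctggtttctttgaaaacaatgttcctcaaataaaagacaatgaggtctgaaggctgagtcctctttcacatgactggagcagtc
closed, Tbc1d30: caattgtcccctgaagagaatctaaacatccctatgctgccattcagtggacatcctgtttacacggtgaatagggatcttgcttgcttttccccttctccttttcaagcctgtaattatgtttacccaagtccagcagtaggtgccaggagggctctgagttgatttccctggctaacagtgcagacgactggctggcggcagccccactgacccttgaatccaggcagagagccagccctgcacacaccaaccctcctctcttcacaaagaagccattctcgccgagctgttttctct
closed, Gm11232: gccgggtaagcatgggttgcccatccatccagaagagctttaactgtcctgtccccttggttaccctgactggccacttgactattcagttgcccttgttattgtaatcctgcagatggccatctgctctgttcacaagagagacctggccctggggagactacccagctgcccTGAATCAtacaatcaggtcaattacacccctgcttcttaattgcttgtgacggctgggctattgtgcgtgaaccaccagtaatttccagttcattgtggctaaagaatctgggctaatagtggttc

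The regions near Lonrf2 and Tbc1d30 held none of these letters in this window, and that near Gm11232 held an AP-1 match at base 175 and no NFI core. Because NFIB itself binds paired TTGGC letters, 60 bases around the full NFI palindrome (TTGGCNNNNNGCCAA, in capitals) are given for the 3 deepest falls that hold it among distal peaks with high and even levels in TKO, a choice made after the values were seen. They lay in an intron with Cadm1 as the nearest gene (chr9:47358194-47358253), in an intron of Ephb2 (chr4:136816874-136816933) and in an intron of Sh3tc1 (chr5:35737317-35737376).

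closed, Cadm1: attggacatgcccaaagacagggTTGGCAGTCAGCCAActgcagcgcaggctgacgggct
closed, Ephb2: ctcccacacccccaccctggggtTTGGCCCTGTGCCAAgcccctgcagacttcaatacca
closed, Sh3tc1: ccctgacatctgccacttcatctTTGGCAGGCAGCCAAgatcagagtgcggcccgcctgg

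The values are unnormalized counts of reads on peaks, which are given here as CPM (counts scaled to a common library size with TMM factors, which hold the bulk of peaks level between libraries). Counts on peaks came to 41880423, 47653979 and 26917178 in TKO and to 30759293, 36907914 and 42215940 in NFIB mutant libraries. A count of 3, taken as the limit of detection, was worth 0.0589 to 0.127 CPM, and it covers counting error only. Log2 CPM correlated with r = 0.833 to 0.940 between TKO libraries, with 0.894 to 0.913 between NFIB mutant libraries and with 0.264 to 0.456 between the genotypes, over peaks, which are not independent. In TKO replicates 1 and 2, 9.26 and 9.07% of the counts lay within 1000000 bp of Mycn, a MYC family oncogene that is often amplified in this tumor, against 0.149% in TKO replicate 3 and 0.0711 to 0.112% in the NFIB mutant libraries. Those 111 tested peaks were all called closed and stayed out of the choice of named peaks, since DNA copies and accessibility cannot be told apart there.

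The labelled cell type was checked on RNA-seq libraries of the same genotypes. Summed over 16 neuroendocrine genes, expression was 2204, 2292 and 4992 CPM in TKO and 54.3, 47.0 and 55.0 CPM in NFIB mutant libraries. Summed over 9 fibroblast markers (among them Col1a1, Pdgfra and Thy1) it was 20.6, 38.4 and 73.6 CPM in TKO and 13225, 10640 and 16805 CPM in NFIB mutant libraries. So the neuroendocrine markers that define small cell lung cancer were far lower in the libraries labelled NFIB mutant, where Ncam1 still had 25.5, 14.2 and 46.6 CPM, and fibroblast markers were far higher. Epithelial and lung lineage genes (20 genes) summed to 686, 434 and 296 CPM in TKO and to 1889, 262 and 97.8 CPM in NFIB mutant libraries. The RNA-seq library of NFIB mutant replicate 1 stood apart there, with 720 CPM of Krt19 and 442 CPM of Krt8 against at most 89.3 and 81.5 CPM in the other NFIB mutant libraries, and its part in the results was not tested. Leukocyte markers (12 genes) summed to 60.8, 5.77 and 4.17 CPM in TKO and to 542, 1128 and 82.0 CPM in NFIB mutant libraries, with Cd3e at 0 in both. Endothelial markers (10 genes) summed to 9.46 to 20.2 CPM and 4.64 to 7.83 CPM, with Cldn5 and Emcn at 0 in both. Mesothelial markers (6 genes) summed to 0.399 to 14.9 CPM and 54.1 to 100.1 CPM, with Upk3b at 0 in TKO. In bulk libraries, fewer cells of a type and less RNA or open chromatin per cell cannot be told apart, and this holds for every result below.

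Chromatin differed between the genotypes at most sites. Of the 111116 peaks tested, 43655 opened (39.3%) and 37777 closed (34.0%) in NFIB mutant tumors, and 29684 were not called (quasi-likelihood test of edgeR, adjusted after Benjamini and Hochberg). The median size of the log2 fold change was 2.63 among opened and 2.93 among closed peaks, and 5571 opened and 8756 closed peaks differed by at least 16-fold. Accessibility of the median closed peak was 5.32, 5.59 and 4.14 CPM in TKO against 0.658, 0.553 and 0.471 CPM in NFIB mutant tumors. A median opened peak had 0.414, 0.402 and 0.549 CPM in TKO and 2.96, 2.77 and 3.43 CPM in NFIB mutant libraries. The libraries of the genotypes did not overlap in 91.3% of the opened and 89.4% of the closed peaks, and in 70.5% of all peaks tested. In 1467 opened peaks no TKO library exceeded the limit of detection, and in 311 closed peaks no NFIB mutant library did. Opened peaks were poorer in G and C (median 46.4%) than closed peaks (50.8%) and peaks not called (50.8%). The split of the calls depended on how libraries were scaled. Opened peaks made up 53.6% of the calls with TMM, 64.3% with library totals alone, which shifted the median over all peaks up by 0.57 on the log2 scale, and 63.0% with start-site peaks of uniformly expressed genes, which shifted it up by 0.49.

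Most opened peaks were distal. Of 89055 distal peaks, over 1000 bp from any annotated start site, 39154 opened (44.0%) and 29083 closed (32.7%). At promoters, 4501 of 22061 peaks opened (20.4%) and 8694 closed (39.4%). Intronic and intergenic peaks were alike, with 44.4 and 44.6% opened and 33.1 and 31.9% closed, and exonic peaks had 34.3% opened and 34.4% closed. With distance from a start site the share not called fell, from 29.5% in the distal class nearest to start sites to 13.2% among peaks over 100000 bp away (6 very remote peaks aside), while the share closed rose from 28.4 to 43.6% and the share opened stayed between 42.2 and 44.8%. By reads, promoter shares were taken over counts outside 11 peaks with large shares of a library and over 1000000 bp from Mycn. Promoter peaks held 55.3 ± 1.49% of these counts in TKO and 49.7 ± 2.57% in NFIB mutant libraries (SD, n = 3 each). The genotypes did not overlap (two-sided exact permutation test, p = 0.1, the smallest that 3 against 3 allow). Those 11 peaks held 27.05 to 32.96% of the counts in TKO and 12.78 to 27.6% in NFIB mutant libraries. The excess of closed over opened promoter peaks held with TMM and with DESeq2 but turned round with library totals alone (6955 opened and 4340 closed), with start-site peaks (6391 and 4680) and with an offset for GC content (6062 and 5208). Opened peaks were a larger share of the calls at distal sites than at promoters under each of these scalings (57.4 against 34.1% with TMM, 64.7 against 61.6% with totals), but not with the GC offset (50.4 against 53.8%).

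**Figure D1:**
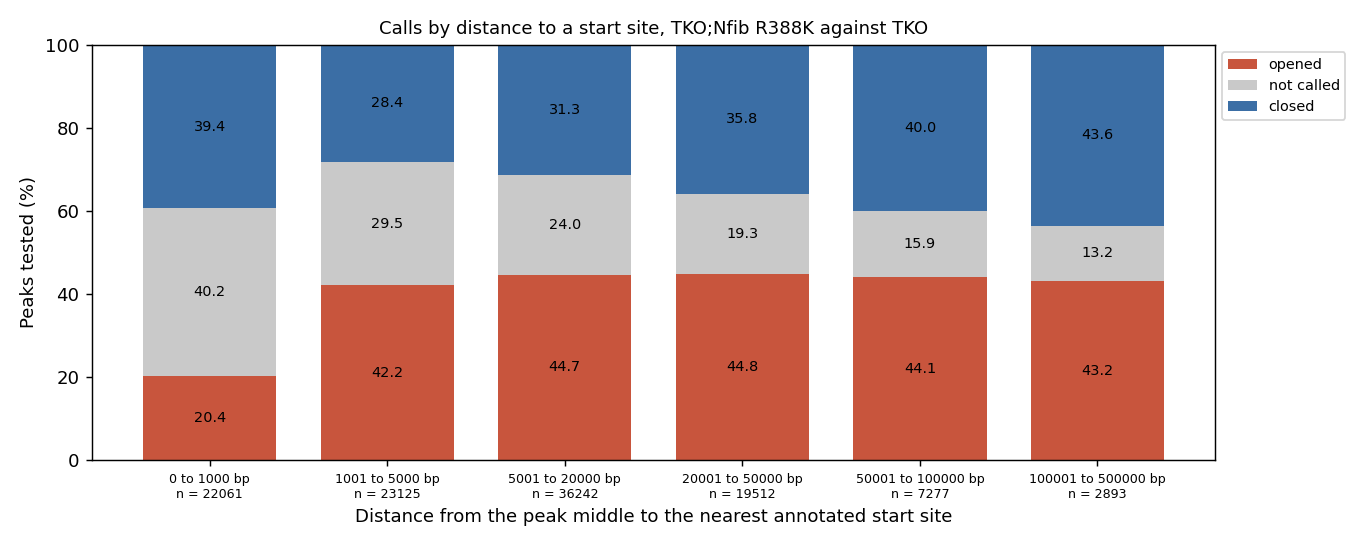
Share of the peaks tested (%, vertical axis) that opened, closed or were not called in NFIB mutant against TKO tumors, by distance from the middle of the peak to the nearest annotated start site; the number of peaks stands under each bar. The share not called falls from 40.2% within 1000 bp to 13.2% in the class over 100000 bp away.

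Among distal peaks, the largest rises were at sites with almost no reads in TKO. The Fyb intron peak (chr15:6564624-6565561; Fyb encodes an adaptor protein of T cells and platelets) had 0.191, 0 and 0 CPM in TKO and 9.71, 12.9 and 22 CPM in NFIB mutant libraries, with a log2 fold change of 7.72 (SE 0.85, adjusted p = 6.39e-05). The Ano2 intron peak (chr6:125937367-125938269), in a gene of a calcium-activated chloride channel, had 0, 0.0927 and 0.0845 CPM in TKO, all at or under the limit, and 5.95, 7.03 and 11.8 CPM in NFIB mutant libraries, which is at least 78.5-fold higher against the limit over the group. Both peaks were thus all but closed in TKO. A peak 55120 bp from the start of Slit3, a guidance ligand, had 0.191, 0.247 and 0.296 CPM in TKO and 20.9, 27.8 and 24.7 CPM in NFIB mutant libraries (log2 fold change 6.64, SE 0.29, adjusted p = 2.11e-06). The other rises were near Car8, in introns of Sh3tc2 and of Lrrc4c, which encodes a synaptic adhesion protein, and near 4921504E06Rik and Gm26657, with log2 fold changes of 6.52 to 7.03.

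The largest distal falls were taken, by the rule, from peaks of at least 3 log2 CPM in TKO and without overlap between the genotypes. Near Tbc1d30, a gene of a Rab GTPase-activating protein, a peak between genes (chr10:121205574-121207126) had 98.8, 120 and 69.6 CPM in TKO and 0.478, 0.192 and 0.255 CPM in NFIB mutant libraries, or 312-fold less (log2 fold change -8.31, SE 1.0, adjusted p = 9.68e-05). The peak near Lonrf2 (chr1:38847802-38848432) had 9.91, 8.50 and 17.4 CPM in TKO and 0.0598, 0.0481 and 0 CPM in NFIB mutant libraries, all at or under the limit, which is at least 162-fold lower. An intronic peak of Rtn1 (chr12:72287959-72289177), a reticulon known from neuroendocrine cells, had 20.3, 36.7 and 9.63 CPM in TKO and 0.0598, 0.265 and 0.0589 CPM in NFIB mutant libraries (log2 fold change -7.41, SE 0.86, adjusted p = 8.33e-05). The remaining falls were near Gm11232, Gramd3, Dhx35 and Pabpc4l and in an intron of Cachd1, with log2 fold changes of -7.33 to -8.06.

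**Figure D2:**
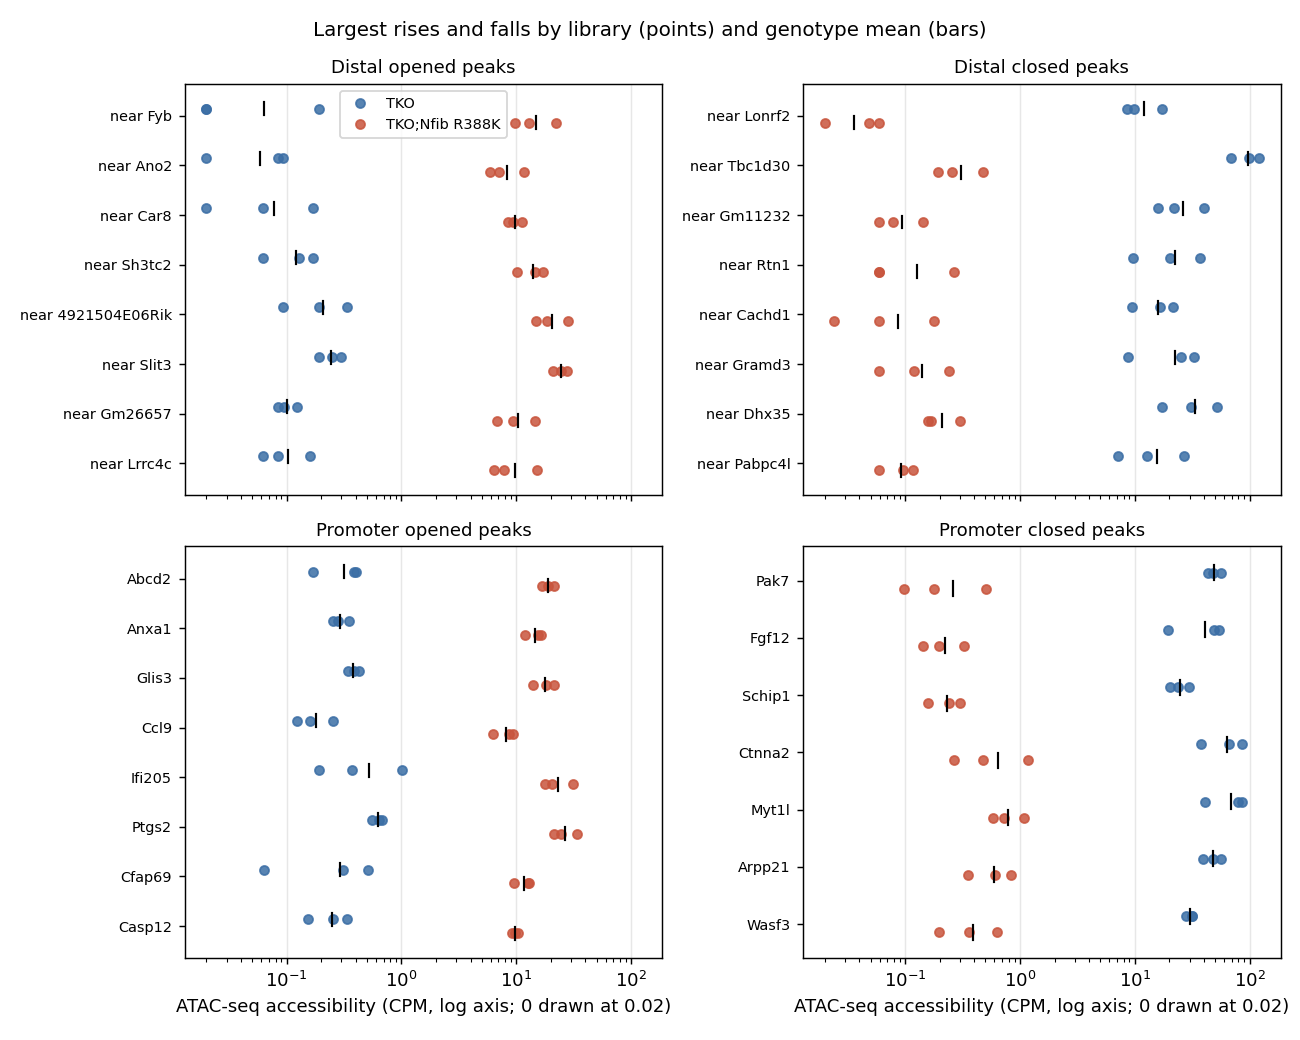
ATAC-seq accessibility (CPM, logarithmic horizontal axis, with 0 drawn at 0.02) of the largest rises and falls among distal peaks (top, by nearest gene) and promoter peaks (bottom, by gene). Points are the 3 libraries of each genotype and bars their mean; in each peak drawn the TKO and NFIB mutant libraries are apart, as the rule required.

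The promoters that opened most went from near 0 to intermediate levels. Anxa1, encoding the phospholipid-binding protein annexin A1, had 0.351, 0.278 and 0.254 CPM at its promoter in TKO and 12, 16.4 and 15.5 CPM in NFIB mutant libraries (log2 fold change 5.61, SE 0.36, adjusted p = 6.28e-06). Its RNA went from 10.4, 6.17 and 1.51 CPM to 314, 464 and 738 CPM. At Ptgs2, the gene of cyclooxygenase 2, promoter accessibility was 0.638, 0.556 and 0.676 CPM in TKO and 21.2, 33.7 and 24.4 CPM in NFIB mutant libraries, 42.4-fold more, and RNA was 0.865, 3.06 and 0.443 CPM against 309, 2117 and 122 CPM. Abcd2, a peroxisomal fatty acid transporter, rose 59.5-fold at its promoter, and Casp12, a caspase of the endoplasmic reticulum, rose 39.3-fold. The other rises were at Glis3, a zinc finger factor, at the chemokine gene Ccl9, at the interferon-inducible gene Ifi205 and at Cfap69. RNA was called higher for 7 of these 8 genes, against 22.3% of the 15514 genes tested in RNA-seq. Glis3 was the exception, with 13.1, 1.22 and 4.03 CPM in TKO and 29.5, 15.3 and 27.3 CPM in NFIB mutant libraries (adjusted p = 0.107).

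The promoters that closed most went from high levels to near 0. Pak7, a brain kinase, had 43.8, 56.3 and 47.8 CPM in TKO and 0.179, 0.505 and 0.0981 CPM in NFIB mutant libraries (189-fold less; log2 fold change -7.56, SE 0.86, adjusted p = 7.16e-05). Its RNA was 7.78, 23.8 and 43.2 CPM in TKO and had no count in any NFIB mutant library. Myt1l, a transcription factor of neuronal identity, had 78.7, 86.5 and 41.1 CPM at its promoter in TKO and 1.08, 0.577 and 0.726 CPM in NFIB mutant libraries, and its RNA went from 98.8, 98.7 and 98.9 CPM to 0.304, 0 and 0 CPM. Ctnna2, the neural alpha-catenin, had 66.4, 85.5 and 37.4 CPM in TKO and 0.478, 0.265 and 1.18 CPM in NFIB mutant libraries. The others were Fgf12, a regulator of sodium channels, Schip1, Arpp21, and the actin regulator gene Wasf3, with log2 fold changes of -6.27 to -7.52. RNA was called lower for each of these genes, against 23.5% of all genes tested. The rule asked for high and even levels in the higher genotype, which 1742 opened and 5707 closed promoter peaks met.

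In some stretches of chromosomes all peaks changed in 1 direction. Among 2003 windows of 1000000 bp with at least 10 tested peaks, all peaks opened in 4 windows and all closed in 8. The richest opened window (chr13:16000000-16999999) held Inhba, which encodes a subunit of activin A, and Sugct, and all 32 of its peaks opened. Summed over the window, accessibility was 8.00, 16.7 and 16.4 CPM in TKO and 110, 123 and 145 CPM in NFIB mutant libraries. The others where all peaks opened held the prolactin family cluster (chr13:27000000-27999999, 14 peaks), serpins of clade B such as Serpinb2 (chr1:107000000-107999999, 12 peaks) and Gvin1 with olfactory receptor genes (chr7:106000000-106999999, 11 peaks). Around Tnc, the gene of the matrix protein tenascin C, 45 of 47 peaks opened and 1 closed. Both windows at Mycn closed at all 57 and 45 peaks, with the copy number caveat given above. Of the other closed windows, that of Spock1, a proteoglycan gene (chr13:57000000-57999999), closed at all 41 peaks, from 282, 221 and 259 CPM summed in TKO to 13.3, 8.88 and 7.97 CPM in NFIB mutant libraries. That of Nrxn3, a presynaptic adhesion gene (chr12:89000000-89999999), closed at all 28, and that of Hs3st4, a heparan sulfate enzyme gene (chr7:124000000-124999999), at all 16. By whole chromosomes the share closed ran from 20.5% on chromosome 19 to 52.3% on chromosome 12, which holds Mycn, among those with over 1000 peaks. Of the 4961 peaks tested on chromosome 12, 2594 closed, and only 111 of those tested lay within 1000000 bp of Mycn. Differences in copy number between tumors were not tested.

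Letters of transcription factor sites differed in frequency between opened and closed distal peaks. They were searched on both strands, and a match to the NFI palindrome can overlap TTGGCA. In the central 300 bases, the AP-1 letters TGANTCA were present in 42.7% of opened, 9.33% of closed and 23% of not called distal peaks, and in 27.2% of all distal and 10.2% of all promoter peaks. The median log2 fold change was 2.18 for distal peaks with them and -0.14 for those without. It rose with their number, from -0.14 with none to 2.08 with 1, 2.68 with 2 and 2.89 with 3 or more, and of the 389 peaks with 3 or more 86.6% opened and 1.03% closed. The order held when distal peaks were split into 3 classes of GC content, with 46.3% of opened and 12.1% of closed peaks in the lowest class and 36.0 and 7.24% in the highest. By reads, distal peaks with AP-1 letters took 10.8, 10.6 and 13.7% of the distal counts in TKO and 26.4, 26.8 and 30.0% in NFIB mutant libraries, without overlap (exact permutation test, p = 0.1, the smallest possible). Shares of distal counts, here and below, left some peaks out, and 24193 of the 24203 distal peaks with AP-1 letters entered. CATTCCA, the site of the TEAD partners of YAP, was in 9.72% of opened and 4.53% of closed distal peaks (7.24% of all), and TGTGGTT, the RUNX site, in 12 and 6.20% (9.65% of all). A match is a description of letters and shows no binding.

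At distal peaks, NFI letters went the other way. TTGGCA was present in 19.5% of opened, 29.9% of closed and 20.7% of not called distal peaks (23.2% of all). Promoter peaks did not share this order, with TTGGCA in 16.2% of opened and 14.4% of closed ones (13.6% of all). Median log2 fold changes fell from 0.85 with no match to 0.08 with 1, -1.48 with 2 and -1.92 with 3 or more, and 56.8% of the 317 peaks with 3 or more closed. The full palindrome was rare, in 96 distal peaks or 0.108%, and of these 66 closed (68.8%) and 10 opened, with a median log2 fold change of -1.99. The Cadm1 peak shown above had 30.1, 35.3 and 28.7 CPM in TKO and 0.538, 0.602 and 0.235 CPM in NFIB mutant libraries (log2 fold change -6.10, SE 0.58, adjusted p = 3.14e-05). Peaks with TTGGCA took 20.9, 21.6 and 21.8% of the distal counts in TKO and 17.7, 17.8 and 18.2% in NFIB mutant libraries, without overlap (exact permutation test, p = 0.1, the smallest possible). Where both sets of letters were looked at, 70.9% of peaks with AP-1 and without TTGGCA opened, 62.0% of those with both, 36.5% of those with neither and 28.8% of those with TTGGCA alone.

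Letters of several other factors were compared in the same way, and they did not all have one direction. CACTTGA (NKX2-1) was in 8.18% of closed and 4.40% of opened distal peaks, ACAATGG (SOX) in 6.67 and 4.2%, and GTTGCCATG (RFX) in 1.49 and 0.429%, with 5.67, 5.0 and 0.812% in all distal peaks. CAGATG, used by both NEUROD and TWIST factors, was in 28.2 and 27.9% (27.5% of all). ATTGATT (ONECUT) was in 4.07% of closed and 2.90% of opened peaks, and ATGCAAAT (OCT) in 1.42% of closed and 1.79% of opened ones (3.17 and 1.54% of all). The letters of CTCF (CCANNAGNNGGC), which binds at the boundaries of chromatin loops, were in 13.3% of not called distal peaks and in only 2.41% of opened and 3.78% of closed ones. Peaks with CTCF letters took 3.74, 3.70 and 4.04% of the distal counts in TKO and 3.55, 3.61 and 3.89% in NFIB mutant libraries, which overlap (exact permutation test, p = 0.5). The other letters searched, TGACGTCA (CRE), TGTTTAC (FOX), TTGCGCAA (CEBP), GGGGCGG (GC box) and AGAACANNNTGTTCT (glucocorticoid response element), were in at most 5.82% of opened or closed distal peaks, against 5.26% of all distal peaks for FOX, the most frequent of them. The CEBP letters were rare, in 79 distal peaks, of which 58 opened and 11 closed, where 44.0 and 32.7% of all distal peaks did. GC box letters were in 2.39% of opened and 3.38% of closed distal peaks (3.12% of all).

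**Figure D3:**
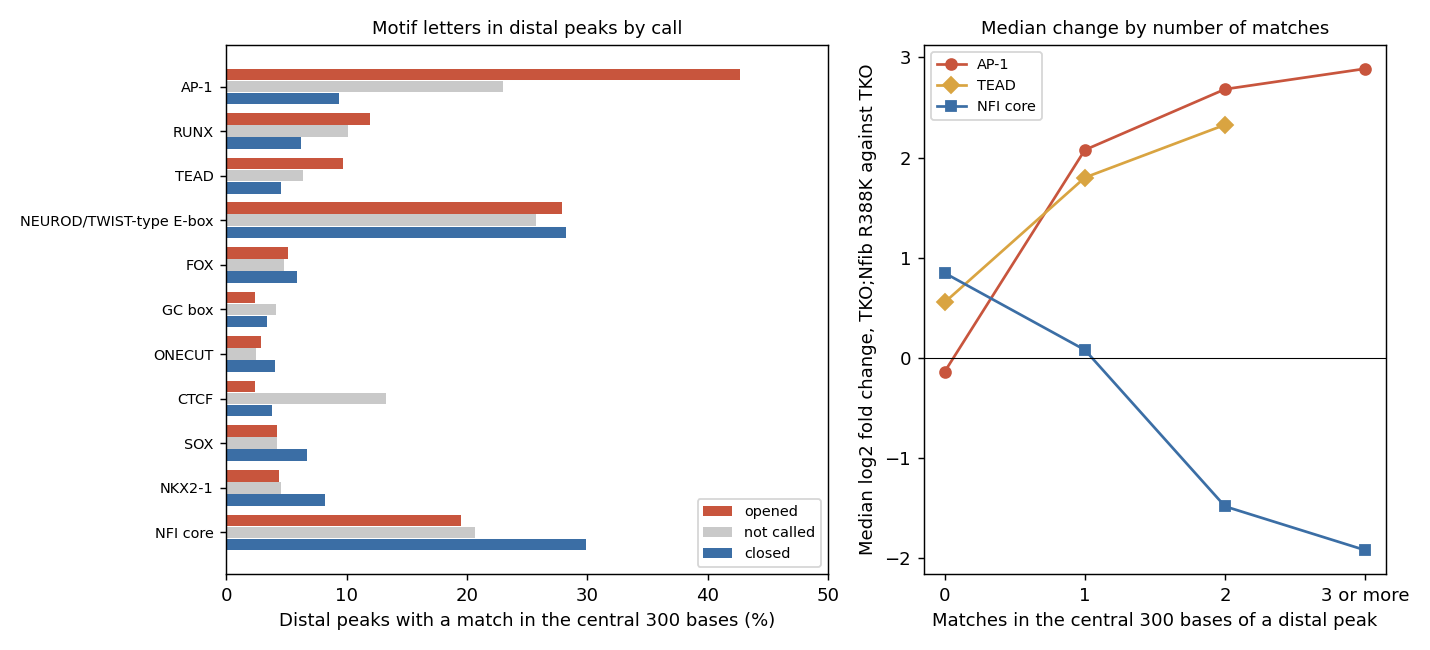
Left, share (%) of opened, not called and closed distal peaks whose central 300 bases hold the letters of motifs found in at least 2% of a class. Right, median log2 fold change of distal peaks by the number of matches, for classes of at least 20 peaks, rising for AP-1 from -0.14 to 2.89 and falling for the NFI core TTGGCA from 0.85 to -1.92.

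At the main promoter peaks of the NFI genes themselves, changes were small. The main promoter peak of a gene is the one with the most counts, and over 14938 protein-coding genes 11.4% of these opened and 42.9% closed, with a median log2 fold change of -0.44. Nfib had 69.5, 70.2 and 104 CPM at its main promoter peak in TKO and 40.1, 45.2 and 43.7 CPM in NFIB mutant libraries (log2 fold change -0.92, SE 0.21, adjusted p = 0.00325). Weaker promoter peaks of Nfib closed further, except that at chr4:82641525-82641700, which was called opened (log2 fold change 2.84, SE 1.02, adjusted p = 0.0280). It had 0.159, 0.0618 and 0.211 CPM in TKO and 0.299, 0.265 and 2.49 CPM in NFIB mutant libraries. Of those that closed, the peak at chr4:82705134-82706014 went from 1.85, 8.28 and 1.14 CPM to 0.359, 0.361 and 0.137 CPM (log2 fold change -3.72, SE 0.94, adjusted p = 0.00521). That at chr4:82499004-82501024 had a log2 fold change of -1.29. Nfix closed by a log2 fold change of -1.13, and Nfia (-0.44, adjusted p = 0.106) and Nfic (-0.43, adjusted p = 0.0443) were not called. The number of NFI promoters called closed was 1 with library totals or start-site peaks and 4 with DESeq2, and the GC offset called 1 opened and 2 closed. Nfib RNA was 420, 580 and 571 CPM in TKO and 105, 83.3 and 91.4 CPM in NFIB mutant libraries (log2 fold change -2.49, adjusted p = 0.00325). Inside and within 10000 bp of Nfib (chromosome 4), 29 of 61 tested peaks closed and 11 opened, against 34.0 and 39.3% of all peaks tested. The deepest fall there was at an intronic peak (chr4:82689832-82690882), from 13.9, 19.2 and 21.1 CPM in TKO to 0.299, 0.120 and 0.294 CPM in NFIB mutant libraries (log2 fold change -6.23, SE 0.53, adjusted p = 1.89e-05).

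Of genes the study itself names, Sox1, a neural transcription factor, closed from 69.7, 59.5 and 83.9 CPM to 2.15, 2.24 and 1.41 CPM at its promoter, and Lingo1, a neuronal membrane protein, from 59.5, 59.7 and 55.1 CPM to 9.59, 9.19 and 10.6 CPM. All 7 distal peaks linked to Sox1 and 25 of 29 linked to Lingo1 closed as well. Mycl, another MYC family gene, had 140, 40.9 and 34.7 CPM at its promoter in TKO and 22.2, 19.2 and 21.5 CPM in NFIB mutant libraries. Trim29, which encodes a tripartite motif protein, opened from 0.797, 0.618 and 0.887 CPM to 1.11, 11.9 and 15.1 CPM (log2 fold change 3.61, SE 0.82, adjusted p = 0.00295), and NFIB mutant replicate 1 stayed near the TKO level. Its RNA was under 2 CPM in all of these libraries and was not called. Carm1, Tdrd3, Ephb3 and Foxa2 were not called at their promoters (log2 fold changes -0.42, -0.40, 0.09 and -1.14), and Foxa1 had no tested promoter peak, while 9 of its 15 linked distal peaks closed and its RNA was called lower. Of the 8 promoters measured, 1 opened and 3 closed in the fit reported, against 1 and 6 with DESeq2 and 3 and 3 with the GC offset. In the fit reported 11.4% of all main promoters opened and 42.9% closed, and the counts lay near these shares. The study picked Sox1, Lingo1, Mycl, Ephb3 and the Foxa genes on these tumors, so their directions are not independent evidence.

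Neuroendocrine and neuronal genes lost accessibility almost throughout. Over all main promoters 42.9% closed and 11.4% opened, with a median log2 fold change of -0.44. All 16 neuroendocrine promoters closed, with a median log2 fold change of -3.29. In RNA-seq 15 of the 16 genes were lower, where 22.3% of all genes tested were higher and 23.5% lower. Scg3, of the secretory granules, closed most. It had 24.3, 25.6 and 22.3 CPM at its promoter in TKO and 0.209, 0.192 and 0.667 CPM in NFIB mutant libraries (log2 fold change -6.03, SE 0.85, adjusted p = 0.000222). Next came Ddc, an enzyme of amine synthesis (-5.75), and the chromogranin gene Chga (-4.82). Of neuronal fate transcription factors, 16 of 18 measured promoters closed and none opened. Neurod1, which marks a subtype of this tumor, had 5.96, 18.8 and 5.54 CPM in TKO and 0.448, 0.385 and 0.294 CPM in NFIB mutant libraries. Myt1 fell by 4.74 and St18 by 4.37 on the log2 scale. Of synapse and axon genes 16 of 19 closed, led after the adhesion gene Nlgn1 (-6.08) by Epha5 (-5.82), the microtubule gene Dcx (-5.77) and the AMPA receptor gene Gria2 (-5.29). The 3 that opened were Slit2, Slit3 and Epha7, all of axon guidance, and their RNA was higher too. Over 5 other scalings, 14 to 16 of the neuroendocrine promoters closed and none opened.

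Each distal peak was linked only to the protein-coding gene with the nearest start site, if that lay within 100000 bp. Of 74354 such peaks, 43.9% opened and 31.1% closed. Around neuronal fate factors 77 of 105 linked distal peaks closed (73.3%), around synapse and axon genes 110 of 171 (64.3%) and around neuroendocrine genes 63 of 113 (55.8%). Myt1l closed at 22 of 23, Prox1 at 15 of 15 and Nrxn3 at 24 of 24 linked distal peaks. Not every site followed, since both distal peaks linked to Chgb and 6 of 17 linked to Ncam1 opened while the promoters of these genes closed.

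Mesenchymal and matrix genes gained accessibility. Over all main promoters 11.4% opened and 42.9% closed, and of all linked distal peaks 43.9% opened and 31.1% closed. Of all genes tested in RNA-seq 22.3% were higher. Of matrix genes, 17 of 21 measured promoters opened and 1 closed, with a median log2 fold change of 2.33, and 22 of 24 genes were higher in RNA-seq. Col3a1, a fibrillar collagen, had 0.128, 0.0618 and 0.211 CPM at its promoter in TKO and 5.53, 4.21 and 5.46 CPM in NFIB mutant libraries (log2 fold change 5.26, SE 0.51, adjusted p = 3.49e-05). Col5a2 (4.05) and the crosslinking enzymes Loxl1 (3.76) and Lox (3.71) followed. Sparc stood apart, with a promoter that closed from 7.24, 9.92 and 12.2 CPM to 2.90, 2.91 and 5.36 CPM while 8 of its 12 linked distal peaks opened and its RNA went from 17.9, 10.2 and 24.8 CPM to 1246, 1455 and 2276 CPM. Around matrix genes, 223 of 317 linked distal peaks opened (70.3%). Among mesenchymal transcription factors 10 of 19 promoters opened and none closed, and 100 of 146 linked distal peaks opened (68.5%). Tbx5, a factor of lung and limb mesenchyme, had 1.24, 1.11 and 1.01 CPM in TKO and 14.7, 20.3 and 15.9 CPM in NFIB mutant libraries, followed by Osr1 (3.41), Twist2 (3.17) and Tbx18 (2.54). Promoters of Zeb1 (0.17), Zeb2 (0.08) and Twist1 (-0.42), known drivers of epithelial-mesenchymal transition, were not called, but 11 of 15 and 14 of 20 distal peaks linked to the Zeb genes opened. Of contractile genes 4 of 11 promoters opened and 3 closed. Acta2, smooth muscle actin, opened by 4.86 on the log2 scale, Tpm2 by 2.26 and Cnn2 by 1.43, whereas Myl9 fell by 1.63. With library totals 5 contractile promoters opened and 1 closed. The summed fibroblast and leukocyte markers given above moved with these groups, and their part in these changes was not tested.

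The genes of the factors whose letters marked opened peaks were examined as a group. Of AP-1 and YAP/TEAD genes 8 of 15 promoters opened and none closed, and 14 of 19 were higher in RNA-seq. The number opened was 11 with library totals or start-site peaks, and with the GC offset all 15 opened, Fos, Jun and Junb included. The YAP target Ankrd1 led, from 0.638, 0.525 and 1.01 CPM at its promoter in TKO to 12.9, 17.5 and 36.0 CPM in NFIB mutant libraries (log2 fold change 4.94, SE 0.46, adjusted p = 2.88e-05). Yap1 itself opened by 2.62 on the log2 scale, and its targets Ccn1 by 2.35 and Ccn2 by 1.74. In the fit reported Fos (-0.15), Jun (-0.17) and Junb (0.11) were not called at their promoters, with 112 to 134 CPM at Jun in TKO and 85.5 to 133 CPM in NFIB mutant libraries, while 10 of 11 distal peaks linked to Fosl2 opened. Among Notch pathway genes, 5 of 13 promoters closed, as at the ligand gene Jag2 (-2.80) and the target gene Hey1 (-1.38), and 2 opened, at Notch1 (1.11) and at Rest (1.18), a repressor of neuronal genes whose RNA was 4.18, 6.69 and 5.63 CPM in TKO and 57.5, 63.9 and 47.3 CPM in NFIB mutant libraries. Over all main promoters 42.9% closed and 11.4% opened, and the Notch counts lay near these shares. Notch promoters turned to an excess of opened calls with library totals (7 opened and 4 closed) and with the GC offset (6 and 1).

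Epithelial and lung lineage genes were divided. Nkx2-1, the lineage factor of lung epithelium, closed from 142, 155 and 100.1 CPM to 10.7, 6.95 and 1.73 CPM at its promoter, and all 11 of its linked distal peaks closed. Krt19, a simple epithelial keratin, opened from 0.924, 0.711 and 1.56 CPM to 17.1, 6.40 and 8.24 CPM, and Krt8 opened as well (log2 fold change 2.0). Cdh1 was not called (2.84, 1.51 and 3.04 CPM in TKO and 3.53, 2.41 and 1.63 CPM in NFIB mutant libraries). In all, 8 of 18 promoters closed and 3 opened, near the 42.9 and 11.4% of all main promoters. The counts were 4 and 4 with library totals, with start-site peaks or with the GC offset. Of 100 linked distal peaks 50 opened and 29 closed, against 43.9 and 31.1% of all linked distal peaks.

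**Figure D4:**
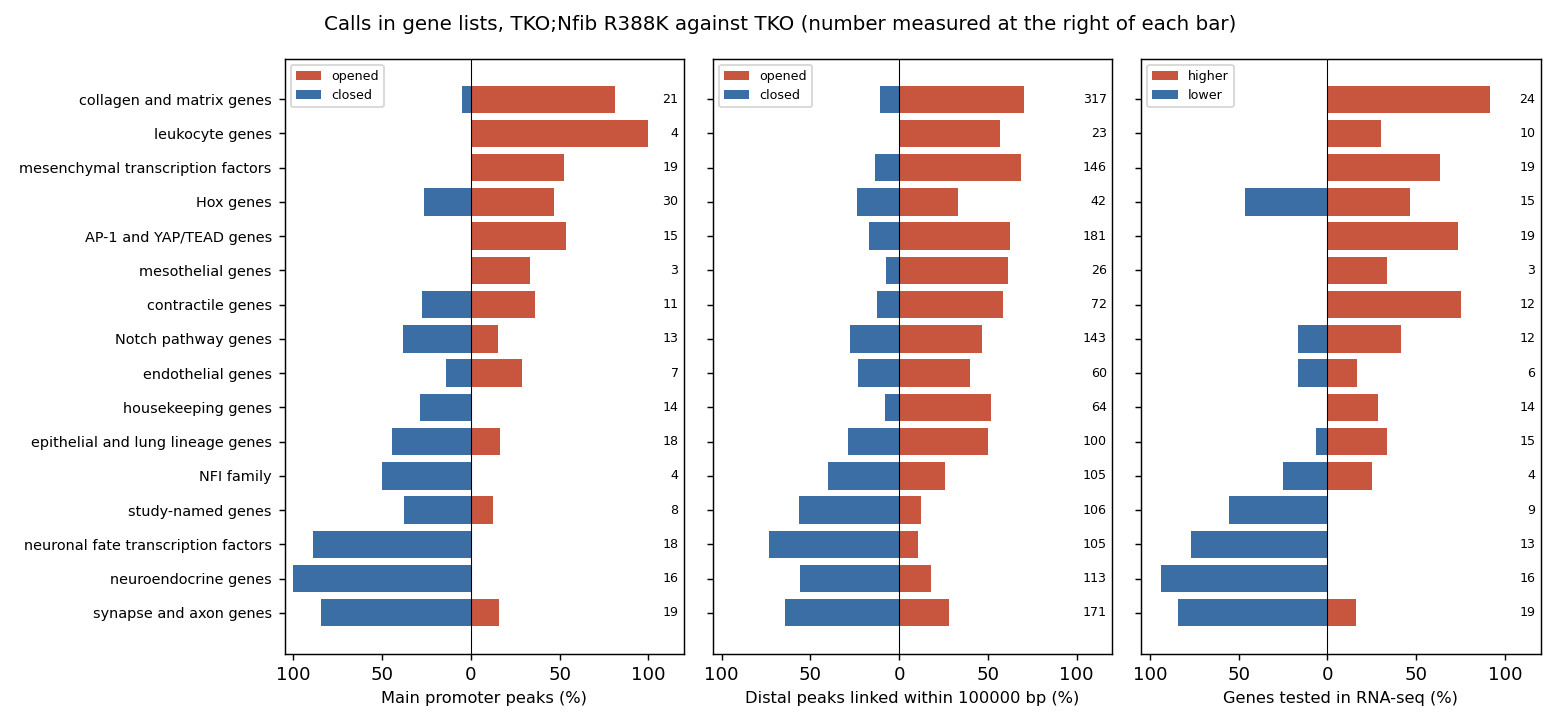
Share (%) of main promoter peaks, linked distal peaks and RNA-seq genes of each list called opened or higher (right of 0) and closed or lower (left of 0) in NFIB mutant against TKO tumors, with the number measured beside each bar. Lists are ordered by median promoter log2 fold change, from synapse and axon genes (-3.88) at the bottom to collagen and matrix genes (2.33) at the top.

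Hox genes, which give cells their position along the body, split by cluster, a division noticed after the values were seen. Over all main promoters 11.4% opened and 42.9% closed. In the Hoxa cluster 9 of 10 measured promoters opened and none closed, with Hoxa5 going from 4.05, 4.02 and 2.49 CPM to 24.7, 22.7 and 29.2 CPM and its RNA from 0, 0.525 and 0 CPM to 66.7, 35.7 and 88.6 CPM. Hoxa2 opened by 2.83, Hoxa6 by 2.61 and Hoxa4 by 2.19 on the log2 scale. In the Hoxb cluster 7 of 9 closed and none opened, with Hoxb7 going from 83.0, 63.0 and 93.8 CPM to 32.3, 36.0 and 38.0 CPM, and the RNA of Hoxb2 to Hoxb8 was called lower. The Hoxa count was 9 or 10 under each of 5 other scalings, whereas 2 Hoxb promoters closed and 1 opened with library totals, start-site peaks or the GC offset. The 3 Hoxc promoters called opened were highest in NFIB mutant replicate 2, which had 7.36 CPM at Hoxc9 against 1.67 and 1.79 CPM in the other two. Of the 6 measured Hoxc promoters, 5 opened with library totals or start-site peaks and 6 with the GC offset.

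Promoters of genes from other cell types were measured on the same scale, where 11.4% of all main promoters opened and 42.9% closed. Of all linked distal peaks 43.9% opened and 31.1% closed. All 4 measured leukocyte promoters opened, from a low level in TKO at Csf1r (0.446, 0.247 and 0.0423 CPM to 1.05, 1.59 and 1.18 CPM) and from a higher level at Cd14 (9.98, 8.37 and 6.08 CPM to 20.5, 28.8 and 18.3 CPM). Spi1 opened by 1.62 on the log2 scale, and 13 of 23 linked distal peaks opened and none closed. Of 7 endothelial promoters Cdh5 (2.59) and Pecam1 (1.79) opened and Erg (-0.87) closed, though no endothelial promoter was called closed with library totals, start-site peaks, the GC offset or the 6 libraries alone. Of 3 mesothelial promoters Wt1 opened (2.63), with 7.50, 1.11 and 3.94 CPM in NFIB mutant libraries. Housekeeping promoters served as a reference, with 10 of 14 not called, 4 closed (Tubb5, Pgk1, Sdha and Rpl13a) and a median log2 fold change of -0.27, which turned to 0.32 with library totals and to 0.20 with the GC offset.

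With the promoter calls of the TMM fit, RNA moved with opened promoters more regularly than with closed ones. That fit closed 42.9% of all main promoters. The closed class depends on the scaling, since closed promoter peaks went from 8694 to 4340 with library totals. The shares below are given for the TMM calls only. Of 1370 genes with an opened main promoter and a tested RNA, 81.2% were higher and 1.90% lower in RNA-seq. Of 5626 genes with a closed main promoter, 38.6% were lower and 6.63% higher, and 54.8% were not called. Genes whose promoter was not called were higher in 25.5% and lower in 10.2%. Over all 13108 genes joined, 23.2% were higher and 21.5% lower. Median RNA log2 fold changes were 4.28, -0.69 and 0.30 for genes with an opened, closed and not called promoter. The study took both assays from the same tumors, but the labels tie no RNA-seq library to an ATAC-seq library, so genes were joined by genotype only.

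**Figure D5:**
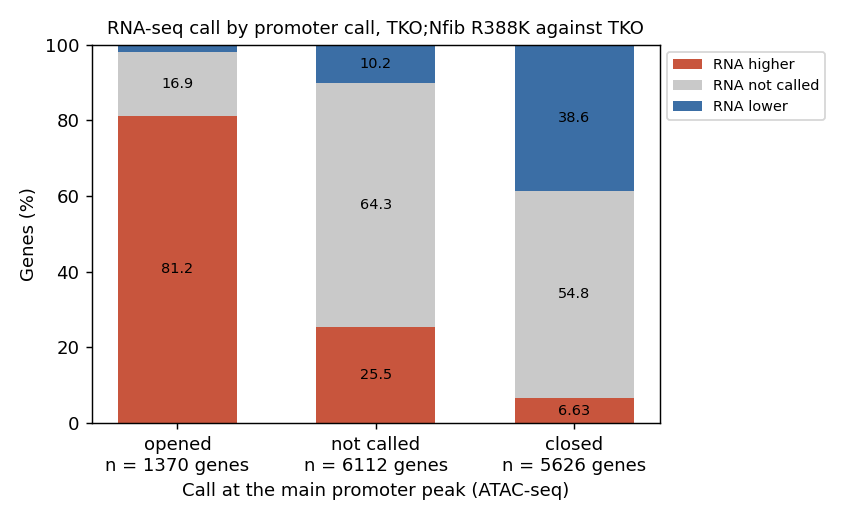
Share (%) of genes called higher, lower or not called in RNA-seq (NFIB mutant against TKO tumors) by the call of their main promoter peak in ATAC-seq; 1370 genes had an opened, 6112 a not called and 5626 a closed promoter. Most genes with an opened promoter (81.2%) were higher in RNA, and 38.6% of those with a closed promoter were lower.

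CARM1 knockout libraries were compared with the same TKO libraries, so the values below share their controls and are given side by side only. At the Sox1 promoter the log2 fold change was -5.20 in NFIB mutant and -3.52 in CARM1 knockout tumors, at Col3a1 5.26 and 5.50 and at Ankrd1 4.94 and 4.68. The closed peak near Tbc1d30 had 0.568, 1.29 and 8.44 CPM in CARM1 knockout libraries, and the opened Fyb peak 11.1, 11 and 9.26 CPM. At the largest promoter falls CARM1 knockout replicate 3 lay above the other libraries of the mutants, with 4.16 CPM at Pak7 against at most 0.768 CPM in the other five. Of the peaks called in NFIB mutant tumors, 89.1% of the opened and 90.5% of the closed had the same call in CARM1 knockout tumors. Between the mutants directly no peak was called (quasi-likelihood test of edgeR, smallest adjusted p = 0.124), which does not show that they are alike.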

How the data were processed

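ATAC-seq was read in 3 libraries each of TKO, NFIB mutant and CARM1 knockout tumors, with RNA-seq of the same genotypes. The deposited values are counts of reads, made by the authors with featureCounts (version 1.6.3 in the file header) on 1 merged peak set for ATAC-seq and with HTSeq for RNA-seq, on GRCm38. The study names MACS2 and the labels Genrich as peak caller. Column letters C and N were read as TKO and NFIB mutant.

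Counts of the 9 libraries were fitted together with edgeR 4.0.16 in R 4.3.3 (TMM, filterByExpr, robust quasi-likelihood test, Benjamini-Hochberg adjustment), for RNA-seq with a log2 threshold of 0.8. The fit was tested on simulated counts. DESeq2 1.42.0, other scalings, filters and left-out libraries were alternatives. Peaks were annotated with GENCODE vM21.

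Named peaks are the 8 largest rises and falls, distal and promoter apart, among called peaks without overlap, with a mean of at least 3 log2 CPM and at most a 4-fold spread in the higher genotype, at least 100000 bp apart and over 1000000 bp from Mycn. Of each gene list the 4 called promoters with the largest change are named. Other list genes (Sparc, the Zeb genes, Fos and Jun among them) were named after their values were seen. Some genes and 1 motif that met these rules are not reported here. Members and lists were chosen with earlier results of these data known. P-values of the fits rest on the spread between the 3 animals within each genotype. It was estimated over the 9 libraries of an assay together and shared in part between peaks or genes.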

Additional observations from a re-analysis of the deposited data

How the results depend on the processing

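The named peaks kept their direction and their side of the threshold in all 519 values under the alternatives run. The number of closed promoter peaks, 8694 in the fit reported, moved to 4340 with library totals, 4680 with start-site peaks, 5228 with totals without the peaks over 0.5% of a library (chosen after seeing the data), 5208 with the GC offset, 5511 with at least 10 counts in every library compared and 5289 with a log2 threshold of 1. Opened promoter peaks moved from 4501 to 6955 with library totals. The filter of 10 counts tested 68087 peaks and called 22513 opened and 20153 closed, of which 18830 and 14642 were distal. Opened peaks were 53.6% of the calls, 64.3% with library totals, 63.0% with start-site peaks, 61.0% without the largest peaks, 51.0% with the GC offset and 50.7% with DESeq2. Leaving out 1 library gave 39741 to 44747 opened and 35804 to 37394 closed peaks, 4056 to 4702 and 7564 to 9161 at promoters, and 35685 to 40045 and 27649 to 28732 at distal sites.

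With the replicate number as a block, 42607 peaks opened and 36770 closed, and with the block and the GC offset 4991 promoter peaks closed. Deviations of same-numbered libraries correlated with 0.0843, 0.0196 and 0.118, so the numbers were not taken to pair the samples. Of the motif shares, 558 values moved by less than their counting interval and 126 by more. Peaks at or under 3 counts in a genotype give lower bounds of a fold only.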
